A study of Mus musculus with 10 samples.

Results

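The genes described here encode the proteins of the cytosolic ribosome and close copies of them. They were taken from the count table by symbol: every row named Rpl or Rps with a number, with at most 1 letter a, x or l and 1 further digit after it, together with Rpsa, Rplp0, Rplp1 and Rplp2. The rule found 87 of 23056 gene symbols, 52 with large-subunit names and 35 with small-subunit names. Of these, 85 had enough counts to be tested and 2, Rpl3l and Rpl39l, did not. The rule used no measured value, and it leaves out a few ribosome genes with other names, which are given further on.

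The libraries were made from liver of Ifrd1 knockout (KO, n = 4) and wild-type (WT, n = 6) mice, all taken 12 hours after partial hepatectomy, an operation in which the median and left lateral lobes were removed under isoflurane. Every value is therefore from a regenerating liver, and unoperated liver was not analysed here. The labels do not give the strain, the age or the sex of the mice, how the knockout was made or in which cells it acts. They number the libraries without naming the animals, so the p-values rest on the spread between libraries, which may be partly technical.

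A ribosome joins a small subunit, which reads the mRNA, to a large subunit, which makes the peptide bond, and each ribosomal protein is needed in about the same number of copies. Their mRNAs begin with a run of pyrimidines (the 5′ terminal oligopyrimidine tract) through which mTOR and LARP1 control their translation together, so that protein output can change without a change in mRNA. Liver cells that re-enter the cell cycle after resection are known to make more ribosomes. Poly(A) RNA sequencing of whole tissue, as used here, reads mRNA levels, and in such bulk samples fewer cells of a type and less RNA per cell cannot be told apart.

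Library totals lay between 12307446 and 17098012 counts, of which 137876 to 222938 fell on the 87 genes. Ifrd1, a transcriptional co-regulator and the targeted gene, averaged 19.5 ± 4.38 CPM in KO livers and 58.7 ± 15.6 CPM in WT livers (SD; n = 4 and 6; CPM is the count scaled by the TMM-adjusted library size), with no overlap, and was called lower (log2 fold change -1.59, SE 0.23, adjusted p = 0.0258, edgeR quasi-likelihood test, Benjamini-Hochberg adjusted). That call was lost on leaving out any KO library, WT replicate 1 or WT replicate 5, with adjusted p of up to 0.132 over all alternatives. Of the 12 hepatocyte markers listed, 11 were in the table, and they summed to 65890 to 76050 CPM in KO livers and 49710 to 103700 CPM in WT livers. WT replicates 1, 3 and 4 stood apart from every other library in Rps3a2 and a few other genes, and the labels do not say whether they share a source or batch that the other WT libraries lack. Albumin alone stood at 26700 to 33820 CPM in KO livers and 19180 to 59960 CPM in WT livers.

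GENCODE, release M21, on GRCm38 (mm10) annotates 82 of the 87 genes as protein coding and 5 as pseudogenes: Rps3a2, Rps3a3, Rpl6l and Rpl32l as processed pseudogenes and Rps4l as a transcribed one. They are spread over 19 chromosomes, with 14 on chromosome 7, 8 on chromosome 17 and 4 on X. Of the 87, 30 have a small nucleolar RNA gene inside their span. In 29 genes, fewer than 25% of the transcript's 50-base words occur in no other annotated transcript, so their reads can be divided among copies or dropped, depending on the counting.

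The pyrimidine tract was looked for at the start sites that RefSeq annotates on GRCm38.p6. On the gene's own strand and at the start site only, the search asked for a C followed by 4 bases that are each C or T. Of 75 annotated starts of 63 members in the RefSeq promoter table, 14 (18.7%) had such a tract. Over all 27025 genes in the promoter table, 823 of 32851 starts (2.51%) had one. Rps14 and Rpl17 were left out of the member search, and no such cut was made over all genes. The shares thus come from sets that were not chosen alike. The 14 include Rpl32l, annotated as a processed pseudogene. An annotated start can differ from the start used in liver, so a missing match says only that these letters are not at the annotated base. The sequences below run from 10 bases before the start to the 15th base from it, and capitals mark the pyrimidine run that begins at the start site. They are shown because this tract is the feature through which these mRNAs are regulated as a family, and they belong to genes whose values are given later (Rps6, Rpl15, Rps18, Rpl14 and Rpl38) or are among the longer runs (Rpl35).
Rps6, chr4:86857353-86857377, minus strand: gaagtcgggcCTCTTTTTCgtgacg
Rpl15, chr14:18270972-18270996, minus strand: agaaagccttCTTCCTTTCCTCTgg
Rps18, chr17:33955651-33955675, minus strand: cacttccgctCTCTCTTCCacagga
Rpl14, chr9:120571507-120571531, plus strand: ggccctctctCTTCTCgctgagcgc
Rpl38, chr11:114668570-114668594, plus strand: aagcctcgttCTTTCCCCgttctct
Rpl35, chr2:39005117-39005141, minus strand: ccgccctttcCTCTTTCTCTCgaac
The run was 13 bases long in Rpl15 and 11 in Rpl35, against 6 in Rpl14.

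The main comparison asked whether loss of Ifrd1 went with a change in ribosomal protein mRNAs in the regenerating liver. No ribosomal protein gene was called in either direction: 0 of 85 were higher and 0 of 85 were lower in KO livers (edgeR's quasi-likelihood test, Benjamini-Hochberg adjusted p under 0.05 over 13688 genes). Over all genes tested, 182 (1.33%) were called, 77 (0.563%) higher and 105 (0.767%) lower, so 0 calls among 85 genes lie close to that background. At an unadjusted p under 0.05 the count was 5 of 85 (5.88%), 1 higher and 4 lower, against 3554 (26.0%) of all genes. DESeq2 called 3 of the 85 (3.53%) where it called 1618 genes (11.8%), and edgeR without WT replicate 4 called 2 (2.35%) where it called 2893 genes (21.4%). Without WT replicates 1, 3 and 4, a choice made after seeing the data, edgeR called 4 (4.71%) where it called 3335 genes (24.4%), so in each of these fits the share was below that of all genes. The KO and WT ranges did not overlap for 1 of the 85, Rplp0, against 944 (6.90%) of all genes tested.

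The differences were small in both directions. Fold changes lay above 0 for 42 genes and below 0 for 43, with a median log2 fold change of -0.002 (0.012 for large-subunit and -0.031 for small-subunit names), beside -0.016 over all genes tested. The median size of the log2 fold change, without its sign, was 0.12 for ribosomal protein genes and 0.323 for all genes. It was under 0.25 for 72 of the 85 (84.7%), compared with 40.7% of all genes, and over 0.5 for 4 (4.71%), compared with 32.2%. Ribosomal protein genes are abundant, with a median of 116 CPM against 12.5 CPM over all genes tested, and their median standard error was 0.181 against 0.245, so a difference in precision stands beside the difference in size.

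**Figure D1:**
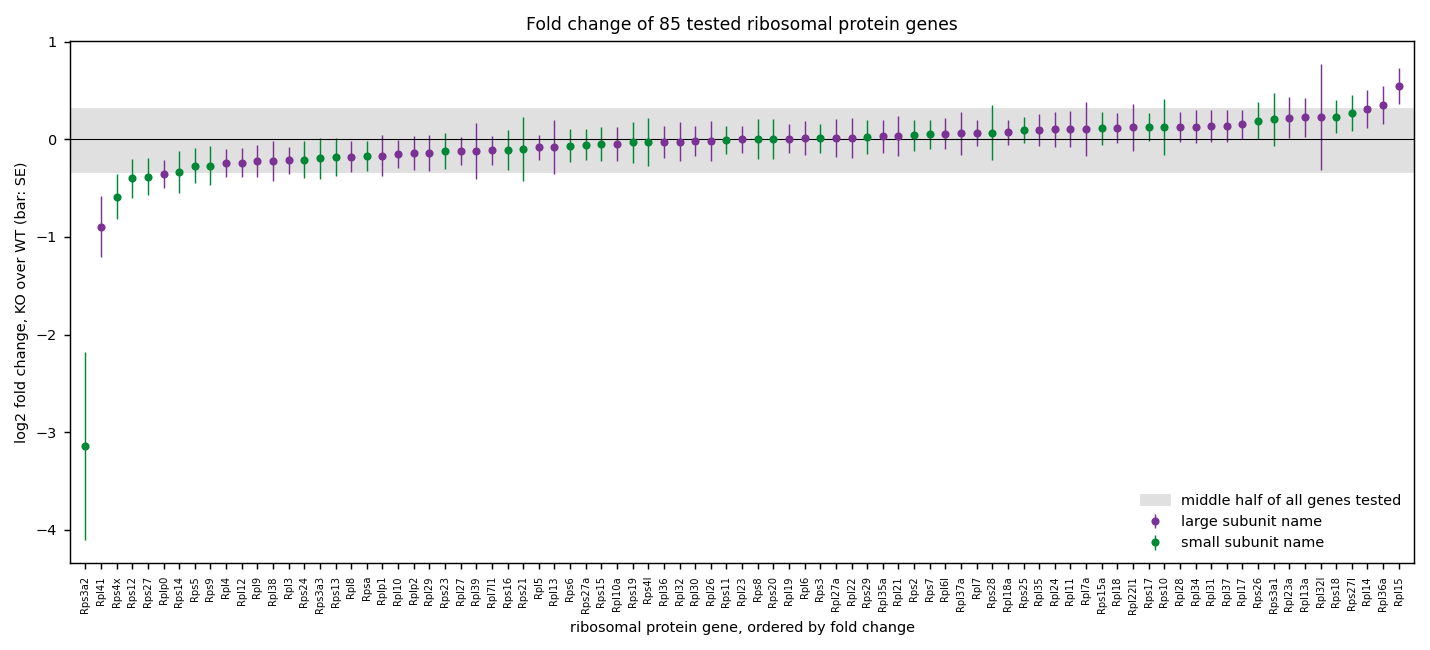
Log2 fold change, KO over WT, for the 85 tested ribosomal protein genes in order of size (points; bars are the standard error), coloured by subunit, over a grey band for the middle quartiles of all 13688 genes tested (-0.334 to 0.309). Most points lie inside the band and near 0, and Rps3a2, Rpl41 and Rps4x lie lowest while Rpl15 lies highest.

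The stalk of the large subunit, which recruits the translation factors, is built from Rplp0, Rplp1 and Rplp2. Rplp0, the scaffold of the stalk (chr5:115559467-115563727), had 327, 316, 303 and 336 CPM in KO livers, against 358, 402 and 486 CPM (lowest, median and highest) in WT livers. All 4 KO libraries lay below all 6 WT libraries, and Rplp0 was the single ribosomal protein gene for which this held. Its log2 fold change of -0.35 (SE 0.14) did not pass over all genes (adjusted p = 0.143, edgeR quasi-likelihood test, Benjamini-Hochberg adjusted). DESeq2, the tool that the submitters' processing notes name, called it lower with the same size (log2 fold change -0.36, adjusted p = 0.0303). Rplp1, an acidic protein of the stalk, averaged 383 ± 87.4 CPM in KO livers and 430 ± 94.5 CPM in WT livers. Rplp2, its partner in the stalk, averaged 203 CPM in KO livers and 223 CPM in WT livers, and both ranges overlapped.

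Of the other large-subunit genes, Rpl15 had the smallest p among those higher in KO livers. Rpl15, a core protein of the large subunit (chr14:18267823-18271391), had 42.6, 38.1, 32.7 and 41.2 CPM in KO livers, against 20.6, 23.8 and 38.7 CPM (lowest, median and highest) in WT livers. Every KO library lay above 5 of the 6 WT libraries, and WT replicate 4, at 38.7 CPM, lay among the KO libraries. Its log2 fold change came to 0.55 (SE 0.19, adjusted p = 0.102, edgeR quasi-likelihood test, Benjamini-Hochberg adjusted). Without WT replicate 4 it was 0.69 and passed (adjusted p = 0.00777). Of the transcript's 50-base words, 24.8% were its own, so some of its reads can belong to copies.

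Rpl41, which encodes a very short basic peptide at the bridge between the subunits (chr10:128548114-128549305), had 201, 145, 136 and 199 CPM in KO livers, against 187, 259 and 534 CPM (lowest, median and highest) in WT livers. WT replicates 5 and 6, at 534 and 462 CPM, stood far above the rest, and the other 4 WT libraries reached 278 CPM at most and overlapped the KO libraries. Its log2 fold change came to -0.89 (SE 0.31, adjusted p = 0.110, edgeR quasi-likelihood test, Benjamini-Hochberg adjusted), and over the alternatives tried it lay between -1.32 and -0.41. DESeq2 called it lower (-0.90, adjusted p = 0.0432), and so did edgeR without WT replicate 4 (-1.003, adjusted p = 0.0293).

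The small-subunit gene Rps4x, the X-linked form of Rps4 (chrX:102184941-102189394), followed a like order. It had 225, 180, 147 and 233 CPM in KO livers, against 218, 260 and 415 CPM (lowest, median and highest) in WT livers. WT replicates 5 and 6 were again the highest, at 415 and 390 CPM, and the groups overlapped. Its log2 fold change came to -0.59 (SE 0.23, adjusted p = 0.137, edgeR quasi-likelihood test, Benjamini-Hochberg adjusted).

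Other genes with the smallest p in their direction differed less, and none passed. Higher in KO livers were Rpl36a (log2 fold change 0.35, adjusted p = 0.266), Rpl14 (0.31, adjusted p = 0.329), Rps27l (0.27, adjusted p = 0.371) and Rps18 (0.23, adjusted p = 0.397). Lower was Rps27 (-0.38, adjusted p = 0.225; all by the edgeR quasi-likelihood test, Benjamini-Hochberg adjusted). Rps27, a zinc-finger protein of the small subunit, is among the least countable of the family, with 1.35% of its 50-base words found in no other transcript, and it stood at 5.87 ± 0.501 CPM in KO livers and 7.64 ± 1.48 CPM in WT livers. Rps18, a protein of the head of the small subunit, averaged 367 ± 53.5 CPM in KO livers and 313 ± 49.98 CPM in WT livers. The KO and WT ranges overlapped in all of these. Single libraries carried part of the differences: without KO replicate 4 the log2 fold change was 0.12 for Rpl14 and 0.14 for both Rps27l and Rps18, and without KO replicate 2 it was 0.20 for Rpl36a.

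**Figure D2:**
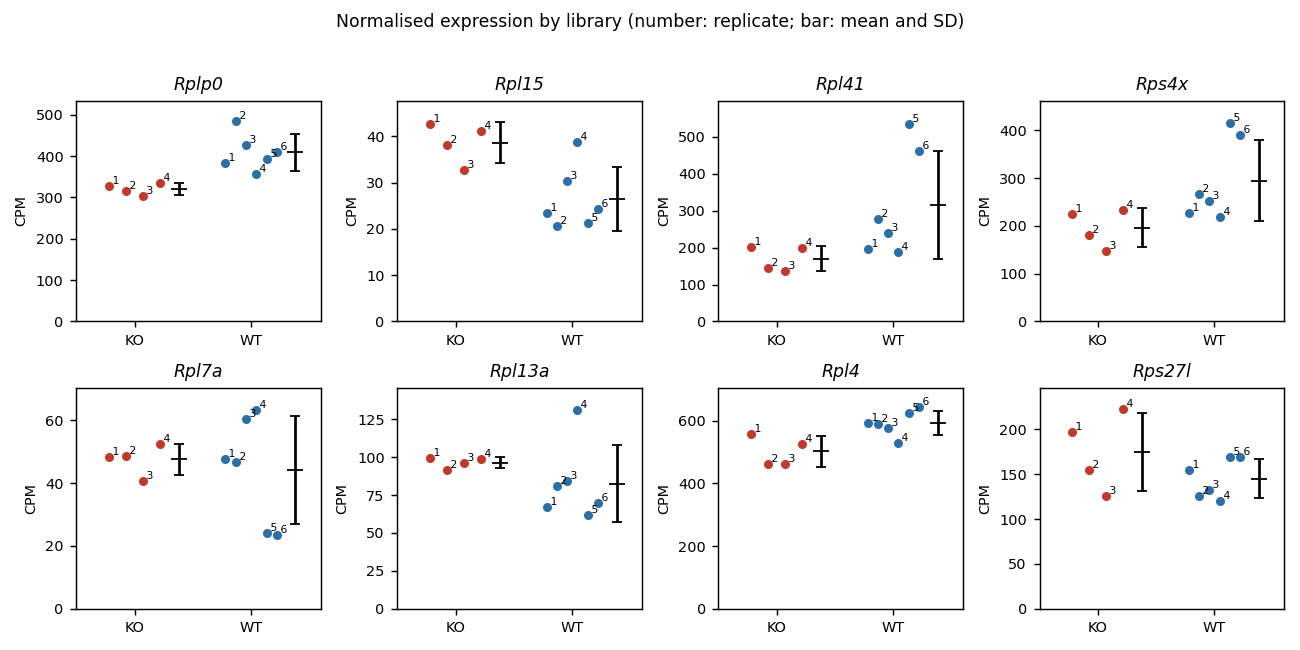
Normalised expression (CPM, from 0) of 8 ribosomal protein genes in each KO library (left, red) and WT library (right, blue), with the replicate number beside each point and a bar for the mean and SD. KO and WT libraries separate for Rplp0 alone, while WT replicates 5 and 6 are the highest for Rpl41, Rps4x and Rpl4, and the lowest, or among the lowest, for Rpl7a and Rpl13a.

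Several ribosomal proteins bind MDM2, the ubiquitin ligase of p53, when ribosome assembly fails. Of the 6 such genes on the list, 0 were called, 3 lay above 0 and 3 below, and their median log2 fold change was 0.005. Rpl11, which binds MDM2 together with Rpl5 and the 5S RNA, averaged 73.2 CPM in KO livers and 68.1 CPM in WT livers. Rpl5 averaged 18.3 CPM in KO livers and 19.4 CPM in WT livers, although 6.16% of its 50-base words were unique. Rpl23, a further MDM2 binder, averaged 213 CPM in both groups. Rps3, Rps7 and Rps27a, the small-subunit genes of the list, averaged 268, 51.2 and 20.3 CPM in KO livers and 266, 49.4 and 21.1 CPM in WT livers.

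Of 9 genes known for roles beyond the ribosome or in disease, 0 were called, 3 lay above 0 and 6 below, with a median log2 fold change of -0.067. Rps6, the substrate of S6 kinase that is phosphorylated in regenerating liver, had 16.3, 21.96, 18.9 and 17.04 CPM in KO livers, against 13.99, 19.7 and 24.8 CPM (lowest, median and highest) in WT livers. The KO libraries lay inside the WT range. Rpl38, which in mice is needed for patterning of the skeleton, averaged 32.3 CPM in KO livers and 37.7 CPM in WT livers. Rpsa, which is also known as a laminin receptor, averaged 426 ± 35.0 CPM in KO livers and 478 ± 63.4 CPM in WT livers. Rps19 and Rps14, a lack of which causes anaemia in humans, averaged 145 and 293 CPM in KO livers and 148 and 369 CPM in WT livers. Rpl13a, which in human monocytes silences inflammatory mRNAs, lay between 91.7 and 99.5 CPM in KO livers and between 61.5 and 131 CPM in WT livers, with WT replicate 4 at the top.

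The family includes second copies, some of which replace a main protein in some tissues, while Rps4l and Rpl6l are annotated as pseudogenes. The copies were compared per length of transcript, as the copy's level in percent of its partner's. Rpl22l1 reached 46.2% ± 3.67 of Rpl22 in KO livers and 42.6% ± 4.21 in WT livers. Rpl7l1, which acts in ribosome assembly, reached 16.9% ± 1.75 of Rpl7 in KO livers and 19.3% ± 2.99 in WT livers. Rps4l reached 19.5% ± 7.60 of Rps4x in KO livers and 14.3% ± 5.75 in WT livers. Rpl6l reached 25.2% ± 5.69 of Rpl6 in KO livers and 25.6% ± 8.05 in WT livers. Only 23.6% of the words of Rpl6l and 35.7% of those of Rpl6 were unique, so reads of this pair can be confused. The same limit holds for Rpl22l1 (34.39% unique), Rps4x (27.75%) and Rpl3 (14.44%), a partner named below. Rps27l stood at 2070% ± 527 of Rps27 in KO livers and 1370% ± 401 in WT livers, a ratio to a partner with 1.35% of its words unique, so its size cannot be read as one of mRNA. In all 5 pairs the ranges of KO and WT livers overlapped. The tissue-restricted copies were close to absent. Rpl3l, the form of Rpl3 in heart and skeletal muscle, reached 0.284% of Rpl3 in KO livers and 0.162% in WT livers. Rpl39l, the form of Rpl39 in male germ cells, had 0 counts in every KO library and in 4 of the WT libraries, and 2 counts in each of WT replicates 2 and 3. A count of 0 still allows an expected count of up to about 3 (95% limit for counting noise).

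The symbol with the largest fold change, Rps3a2, did not follow the genotype. Rps3a1 (chr3:86137940-86142702, minus strand) encodes Rps3a, a small-subunit protein near the mRNA exit, and has 6 exons. Rps3a2 (chr14:88123017-88123808, minus strand) and Rps3a3 (chr13:108670603-108671397, plus strand) are intronless processed pseudogenes of it. Over the coding sequence, Rps3a2 matches Rps3a1 in 788 of 792 bases (99.5%), and Rps3a3 matches it in 786 of 795 bases (98.9%). Counted from 1 at the A of the start codon, with the base of Rps3a1 first, Rps3a2 differs by T216C, T534C, A645T and T668C. The first and second of these sites, each within 1 exon of Rps3a1, are shown on GRCm38 because a read has to cover such a base to tell the copies apart, and the capital marks the base that differs.
Rps3a1, chr3:86141362-86141392, minus strand: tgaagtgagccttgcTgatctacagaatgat
Rps3a2, chr14:88123578-88123608, minus strand: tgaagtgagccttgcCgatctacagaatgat
Rps3a1, chr3:86139054-86139084, minus strand: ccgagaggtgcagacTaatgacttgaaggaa
Rps3a2, chr14:88123260-88123290, minus strand: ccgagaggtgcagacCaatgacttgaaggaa
Rps3a3 also has T216C and T534C, so neither base alone tells Rps3a2 from Rps3a3.

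Rps3a2 had 111, 76, 59 and 75 counts in KO replicates 1 to 4. It had 1389, 1226 and 1133 counts in WT replicates 1, 3 and 4, against 63, 68 and 86 counts in WT replicates 2, 5 and 6. The WT libraries thus fell into a high and a low set with nothing between, and the low set overlapped the KO libraries. Its log2 fold change came to -3.14 (SE 0.96, adjusted p = 0.0883, edgeR quasi-likelihood test, Benjamini-Hochberg adjusted). DESeq2 called it lower (-3.15, adjusted p = 0.0113), and without WT replicates 1, 3 and 4 it was -0.12.

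Rps3a1 ran the other way within the WT group. It lay between 259 and 380 CPM in KO livers, at 310, 398 and 406 CPM in WT replicates 2, 5 and 6, and at 163, 183 and 217 CPM in WT replicates 1, 3 and 4. The last 3 lay below all other libraries. Rps3a2 took 1.20% to 1.91% of the counts on Rps3a1, Rps3a2 and Rps3a3 in KO libraries, against 35.3%, 33.1% and 25.7% in WT replicates 1, 3 and 4 and 1.44% to 1.595% in the other WT libraries. With the counts of all 3 symbols summed into 1, the level was 332 ± 55.3 CPM in KO livers and 331 ± 66.0 CPM in WT livers (SD; n = 4 and 6). The fold change of that sum was 0.001 on the log2 scale (SE 0.19, adjusted p = 0.999, edgeR quasi-likelihood test, Benjamini-Hochberg adjusted). The sums ranged from 267 to 389 CPM in KO livers, and those of WT replicates 1, 3 and 4, at 260 to 300.0 CPM, lay within or just below that range. They were below the sums of KO replicates 1, 2 and 4, and below WT replicates 2, 5 and 6, at 320, 408 and 417 CPM. These 3 libraries stood apart in how the counts were divided among the copies, and their sums were also on the low side. From which of the copies these reads came was not tested.

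**Figure D3:**
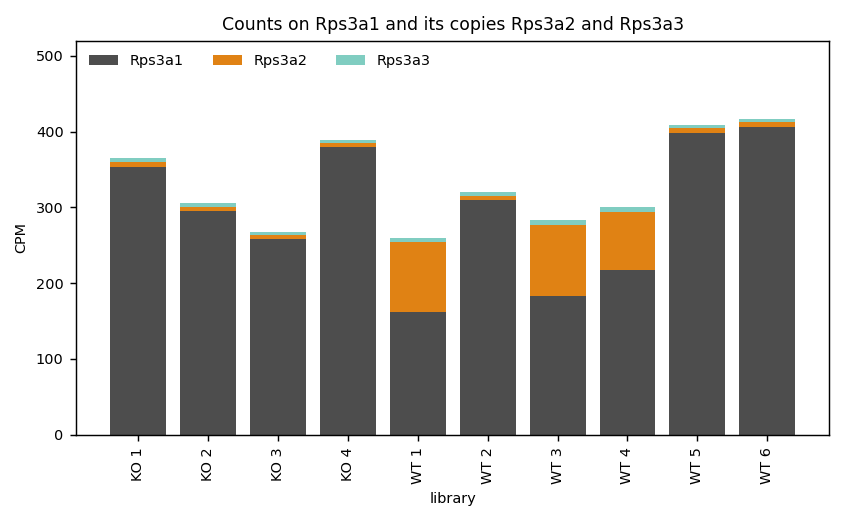
CPM on Rps3a1 (grey), Rps3a2 (orange) and Rps3a3 (green), stacked for each KO library (left) and WT library (right). Rps3a2 takes 25.7% to 35.3% of the bar in WT replicates 1, 3 and 4 and under 2% in the others.

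Libraries of the same genotype differed from each other, and many ribosomal protein genes shared the same high and low libraries. WT replicates 5 and 6 were the 2 highest of the 10 libraries for 27 of 85 genes (31.8%), against 7.76% of all genes tested. They were the 2 lowest for 4 genes, Rpl23a, Rpl6, Rpl7a and Rps2 (4.71%, against 7.67% of all genes). Among the knockouts, replicates 1 and 4 both lay above replicates 2 and 3 for 37 genes (43.5%, against 26.2% of all genes) and both below them for 11 (12.9%, against 25.2%). These libraries were picked out after their values were seen, so the counts are descriptions.

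Rpl7a, a large-subunit protein whose gene hosts small nucleolar RNAs, showed the reverse order. It had 48.4, 48.8, 40.8 and 52.5 CPM in KO livers, and 24.0 and 23.4 CPM in WT replicates 5 and 6, against 46.8 to 63.2 CPM in the other WT libraries. Rps21, a small-subunit protein, had 128, 95.1, 75.5 and 162 CPM in KO livers, and 188 and 203 CPM in WT replicates 5 and 6, against 71.6 to 103 CPM in the other WT libraries. In Rps10, Rps28 and Rpl39, as in Rps21, the 3 highest libraries were WT replicates 5 and 6 and KO replicate 4. Rps10, another small-subunit protein, stood at 62.7 and 87.5 CPM in KO replicates 1 and 4, against 48.8 and 41.4 CPM in KO replicates 2 and 3. The median deviation of the 85 genes from their own means was lowest in WT replicate 1 and KO replicate 3, at -0.21 and -0.18 on the log2 scale. It was highest in WT replicates 5 and 6, at 0.20 and 0.18, so a gene's deviation in part repeats the whole family's. Over replicates, the SD of log2 CPM had a median of 0.196 in KO livers and 0.272 in WT livers, and it was larger in WT livers for 64 of the 85 genes (75.3%), beside 80.3% of all genes tested.

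**Figure D4:**
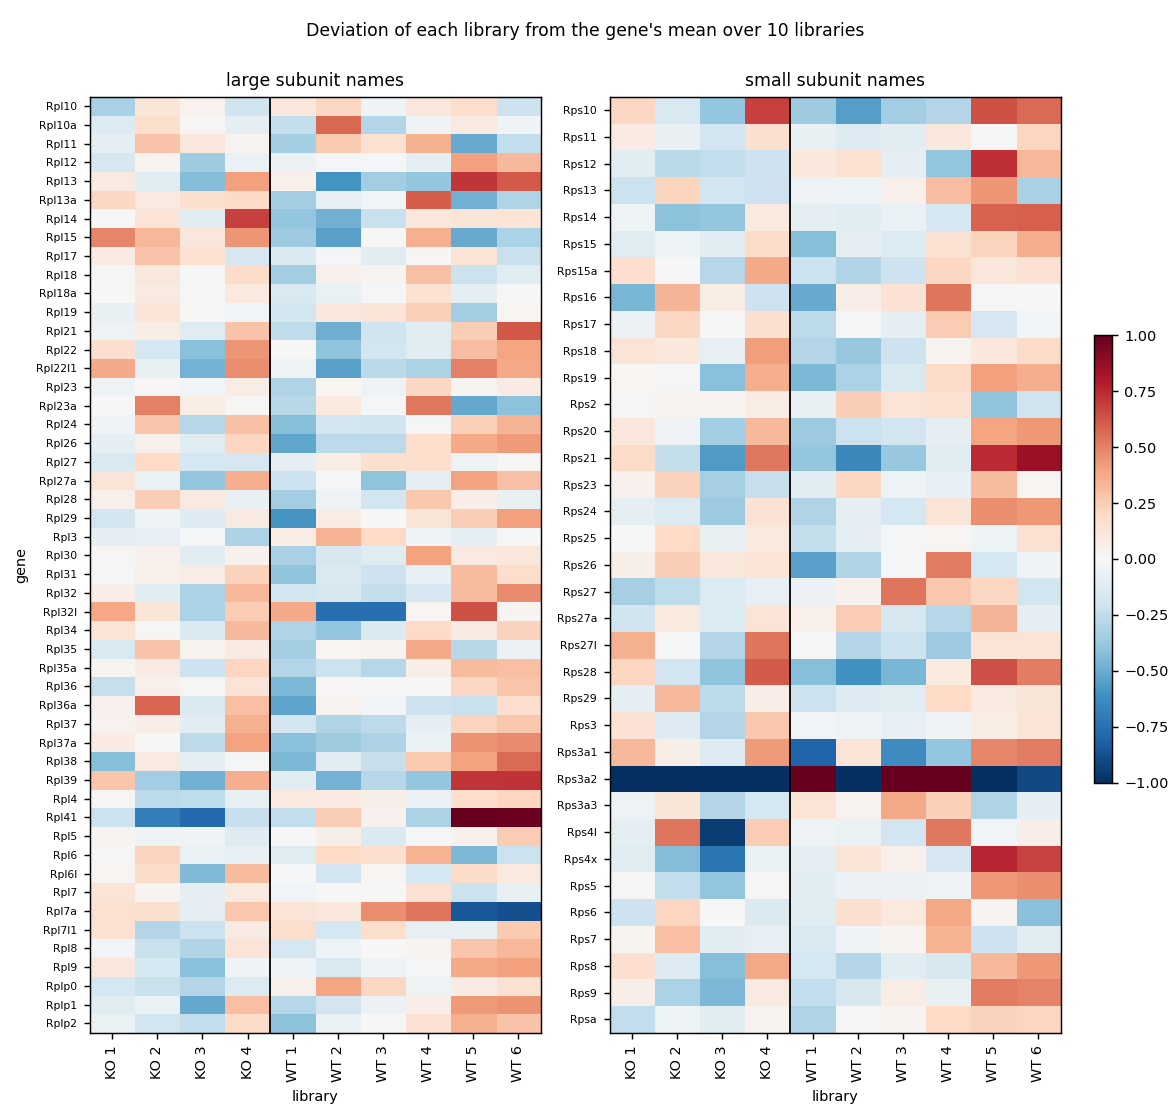
Deviation of each library from the mean of all 10 for the gene, as log2(CPM + 0.5) (colour, limited to -1 and 1), for the tested large-subunit (left) and small-subunit (right) genes, with the 4 KO libraries left of the line and the 6 WT libraries right of it. WT replicates 5 and 6 are red for 27 genes that peak there and blue for Rpl7a, and Rps3a2 is dark red in WT replicates 1, 3 and 4 only.

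As a share of all counts, the 87 genes took 1.30%, 1.22%, 1.00% and 1.39% in KO livers and 1.14%, 1.15%, 1.17%, 1.32%, 1.36% and 1.41% in WT livers. The means were 1.23% ± 0.168 in KO livers and 1.26% ± 0.119 in WT livers (SD; n = 4 and 6), a difference of -0.0288 percentage points, smaller than either SD. KO replicate 3, the lowest, was also the library with the highest share of mitochondrially encoded mRNA, at 30.5%, against 16.5% to 22.2% in the other KO libraries and 14.5% to 28.9% in WT libraries. Among WT livers, replicates 5 and 6, the highest in the share of the 87 genes, had 28.9% and 24.5% of mitochondrially encoded mRNA. WT replicate 1, the lowest, had 14.5%. Leaving mitochondrial counts out gave 1.57% ± 0.118 in KO livers and 1.62% ± 0.266 in WT livers. KO replicate 3 then stood at 1.44%, against 1.56% to 1.73% in the other KO libraries. The part of mitochondrial RNA in the spread of the share was not tested further.

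Although the proteins are used in about equal numbers, the counted mRNA levels per length were spread widely. Rplp1 had the highest level, at 767 CPM per kb of transcript in KO livers and 862 CPM per kb in WT livers. It was followed by Rps15, of the small-subunit head, at 694 CPM per kb in KO livers and 719 CPM per kb in WT livers. Rpl26, a large-subunit protein that in human cells also binds p53 mRNA, had 601 CPM per kb in KO livers and 607 CPM per kb in WT livers. At the low end of the tested protein-coding genes stood Rps23, of the decoding centre, at 7.57 CPM per kb in KO livers and 8.24 CPM per kb in WT livers, and Rpl5, at 8.97 CPM per kb in KO livers and 9.50 CPM per kb in WT livers. The length used is that of 1 annotated transcript per gene. It is 3706 bases for Rps20 and 2045 bases for Rpl5, both longer than a typical transcript of the family. The low level of Rpl5 per kb depends in part on that choice.

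Part of this range ran with how much of the transcript can be counted without doubt. Protein-coding genes with under 25% unique 50-base words (27 genes) had a median of 76.8 CPM per kb in KO livers and 80.9 CPM per kb in WT livers. The 25 genes between 25% and 50% had medians of 201 CPM per kb in KO livers and 234 CPM per kb in WT livers, and the 30 genes with 50% or more had 205 CPM per kb in KO livers and 211 CPM per kb in WT livers. Within the least unique genes the level still varied from 9.29 to 598 CPM per kb, with Rps18 at the top although 13.3% of its words are unique. Ribosomal protein pseudogenes that the symbol rule leaves out filled 181 rows with 153738 counts over the 10 libraries, beside 1756023 counts on the 87 genes, and 0 of the 82 rows tested were called.

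**Figure D5:**
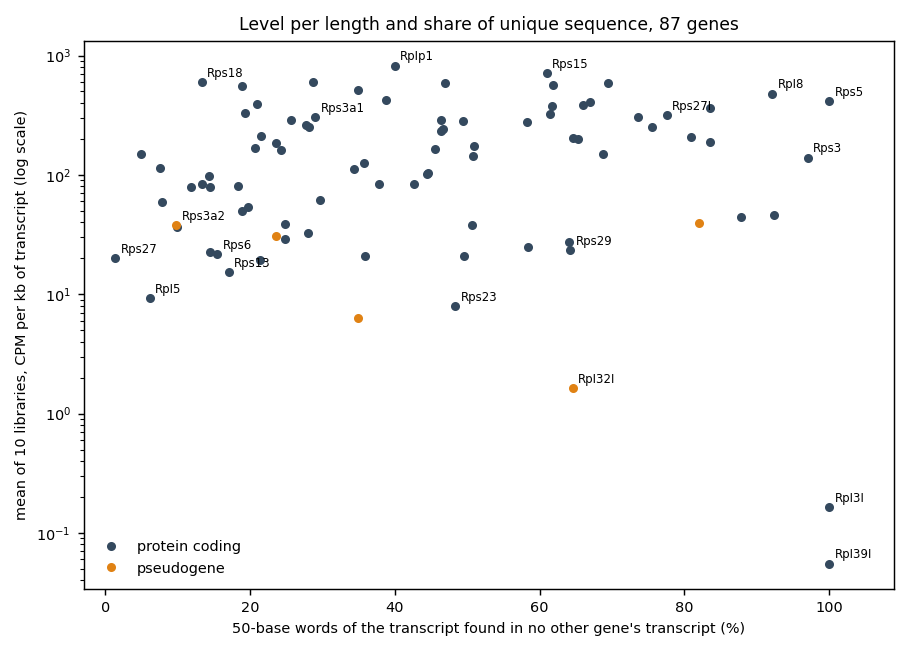
Mean level over the 10 libraries in CPM per kb of transcript (log scale) against the share of a transcript's 50-base words found in no other gene's transcript (percent), for all 87 genes, protein coding (dark) or pseudogene (orange). Low and high levels occur at both small and large shares, and Rpl3l and Rpl39l lie lowest although all their words are unique.

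Ribosome genes and a binding partner that the symbol rule leaves out were also read. Of 5 tested, 0 were called, 1 lay above 0 and 4 below. Their median log2 fold change was -0.181, beside -0.002 for the 85 tested members. The gene above 0 was Rps19bp1, the partner of Rps19 (log2 fold change 0.117). Fau, which makes Rps30, averaged 23.2 ± 2.21 CPM in KO livers and 23.7 ± 3.32 CPM in WT livers. Rack1, a signalling scaffold on the small subunit, averaged 346 ± 39.5 CPM in KO livers and 396 ± 50.9 CPM in WT livers.

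Other mRNAs with a pyrimidine tract, mostly of translation factors, were read beside them. Of 19 tested, 0 were called, 6 lay above 0 and 13 below, with a median log2 fold change of -0.06. An unadjusted p under 0.05 was found for 4 (2 higher, 2 lower), beside 26.0% of all genes tested. Eef2, the factor that moves the ribosome along the mRNA, had 621, 579, 567 and 625 CPM in KO livers, against 655, 913 and 1190 CPM (lowest, median and highest) in WT livers. The groups did not overlap, and the log2 fold change of -0.62 (SE 0.18) missed the threshold (adjusted p = 0.0801, edgeR quasi-likelihood test, Benjamini-Hochberg adjusted). It passed by DESeq2 and without WT replicate 4, with adjusted p between 0.0101 and 0.197 over all alternatives. Eef1a1, which brings the aminoacyl-tRNA, had a log2 fold change of -0.37 (adjusted p = 0.198, by the same edgeR test).

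The genes that control translation of these mRNAs, around mTOR and LARP1, numbered 14. Of these, 0 were called, with 7 above and 7 below 0. An unadjusted p under 0.05 was found for 3 (1 higher, 2 lower), beside 26.0% of all genes tested. Deptor, an inhibitor that binds mTOR, averaged 36.5 CPM in KO livers and 15.6 CPM in WT livers. The 2 groups did not overlap, with a log2 fold change of 1.23 (SE 0.28, adjusted p = 0.0541, edgeR quasi-likelihood test, Benjamini-Hochberg adjusted), which passed by DESeq2, by limma-voom, with no filter on low counts and without WT replicate 4 (range of adjusted p over alternatives 0.00322 to 0.152). Larp4, a La-related protein, averaged 41.3 ± 1.28 CPM in KO livers and 60.3 ± 13.3 CPM in WT livers, with no overlap. Eif4ebp1, a repressor of cap-dependent translation that mTOR inactivates, averaged 23.3 ± 3.98 CPM in KO livers and 47.4 ± 31.1 CPM in WT livers, with overlap. Larp1, which binds the tract, averaged 103 ± 13.2 CPM in KO livers and 101.4 ± 9.18 CPM in WT livers. Mtor, the kinase, averaged 34.2 CPM in KO livers and 36.1 CPM in WT livers.

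Of 15 chaperones, importins and assembly partners of ribosomal proteins, 0 were called, 5 lay above 0 and 10 below, and 5 had an unadjusted p under 0.05, all lower, with a median log2 fold change of -0.141. Those 5 were Ipo5, Grwd1, Ltv1, Rrs1 and Brix1, against 14.4% of all genes lower at that p. Ipo5, an importin that carries ribosomal proteins into the nucleus, averaged 34.0 CPM in KO livers and 53.1 CPM in WT livers, with no overlap (log2 fold change -0.64, SE 0.17, adjusted p = 0.0654, edgeR quasi-likelihood test, Benjamini-Hochberg adjusted). It passed by DESeq2 and without WT replicate 4. Grwd1, the chaperone of Rpl3, averaged 16.0 CPM in KO livers and 24.1 CPM in WT livers, and Ltv1, an assembly factor of the small subunit, averaged 17.3 CPM in KO livers and 23.4 CPM in WT livers, again without overlap for Ltv1.

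Of 10 transcription factors known to act at ribosomal protein promoters, 0 were called, 1 lay above 0 and 9 below. An unadjusted p under 0.05 was found for 1 of them, beside 26.0% of all genes tested. That gene was Myc, which drives ribosome production and averaged 14.9 ± 4.02 CPM in KO livers and 32.0 ± 13.0 CPM in WT livers (log2 fold change -1.10, SE 0.34, adjusted p = 0.0855, edgeR quasi-likelihood test, Benjamini-Hochberg adjusted). WT replicate 4, at 11.2 CPM, lay at the lower end of the KO range of 11.2 to 19.2 CPM, and the test passed without it and by DESeq2. A list of surveillance genes covered surplus ribosomal proteins, stalled ribosomes and the p53 response. Of its 14 tested genes, 0 were called, 4 lay above 0 and 10 below. An unadjusted p under 0.05 was found for 4 of them (1 higher, 3 lower), beside 26.0% of all genes tested (11.6% higher, 14.4% lower). The 3 lower ones were Cdkn1a, Map3k20 and Nop53, and the higher one was Usp21. Cdkn1a, the cell-cycle inhibitor p21, averaged 72.5 ± 22.7 CPM in KO livers and 193 ± 89.9 CPM in WT livers. Map3k20, a kinase that senses stalled ribosomes, averaged 5.58 ± 1.68 CPM in KO livers and 9.31 ± 1.44 CPM in WT livers. Nop53, which holds ribosomal proteins in the nucleolus, averaged 54.2 ± 2.17 CPM in KO livers and 84.0 ± 23.1 CPM in WT livers. The groups overlapped in all 4. Mdm2 averaged 50.04 ± 4.28 CPM in KO livers and 54.2 ± 7.19 CPM in WT livers.

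Markers of immune cells also differed among these libraries. All 11 Kupffer cell and macrophage markers lay below 0, with a median log2 fold change of -1.07. None of them was called, and 7 had an unadjusted p under 0.05, against 14.4% of all genes lower at that p. Summed, they made 54.0 to 102 CPM in KO livers and 69.4 to 430 CPM in WT livers, with none at 0 in every library and the highest sum in WT replicate 2. Of 7 monocyte and neutrophil markers tested, 6 lay below 0 and 0 were called. At an unadjusted p under 0.05, 4 were lower, against 14.4% of all genes. The monocyte and neutrophil list summed to 20.1 to 26.1 CPM in KO livers and 19.9 to 186 CPM in WT livers. The lymphocyte markers summed to 4.69 to 5.78 CPM in KO livers and 3.503 to 40.3 CPM in WT livers. WT replicate 2 also had the highest Rplp0 and Eef2, and the part of immune cells in those values was not tested. Endothelial markers differed in both directions, with 3 of 9 higher and 2 lower at an unadjusted p under 0.05. Over all genes tested, 11.6% were higher and 14.4% lower at that p. Lyve1 averaged 5.70 ± 0.766 CPM in KO livers and 19.5 ± 15.8 CPM in WT livers, with no overlap, and Cdh5 averaged 10.5 ± 2.31 CPM in KO livers and 20.6 ± 11.2 CPM in WT livers, with overlap. Among the 9, 1 was called, against 1.33% of all genes: Fcgr2b, which was higher in KO livers (log2 fold change 1.03, adjusted p = 0.0440, edgeR quasi-likelihood test, Benjamini-Hochberg adjusted), a call lost on leaving out any 1 library except WT replicates 2 and 4.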

How the data were processed

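RNA of whole liver was sequenced in 10 libraries after oligo(dT) selection, per the labels' protocols. The authors deposited raw read counts for each gene symbol and library, and 0 columns were left out. STAR, HTSeq, DESeq2 and build mm10 are named in the submitters' processing notes. Tool versions, gene annotation and strandedness of the counting were not given, so reads of near-identical copies or overlapping genes may have been divided or lost.

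Groups and replicate numbers came from the labels. Counts were tested with edgeR 4.0.16 (R 4.3.3; glmQLFit, TMM, filterByExpr by group, robust, no covariate) on 13688 genes and all 10 libraries, and p-values were adjusted by Benjamini-Hochberg over all of them, called under 0.05. The standard error is the log2 fold change over the square root of F. CPM uses TMM-scaled library sizes. Alternatives were DESeq2 1.42.0, limma-voom (limma 3.58.1), other scalings and filters, a replicate block and leaving out libraries; those without WT replicates 5 and 6 or 1, 3 and 4, with Rps3a copies summed and with protein-coding members alone were chosen after seeing the data. The test was also run on simulated counts with known changes. These were drawn around the same relative level for every library of a group. They held no set apart such as WT replicates 1, 3 and 4, so the run cannot show how the test behaves with such a set. Within a group, libraries differed by more than sampling noise (chi-square per degree of freedom 20.8 to 169), so none was counted as a copy. Of 23056 symbols, 22277 (96.6%) were found in GENCODE M21. Sequences are from GRCm38 and RefSeq (GRCm38.p6).

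The members and gene lists were chosen with earlier results of these data known. Genes with a fold change in the text are the 5 tested members with the smallest p in each direction, members whose groups do not overlap, Rps3a1, Ifrd1 and a few genes of the lists. Rpl7a, Rps10, Rps21 and the copies of Rps3a1 were described after their values were seen. A ribosome gene of the lists is not reported here.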

Additional observations from a re-analysis of the deposited data

Results flagged for a closer look

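In 4 of 102 sets of 4 or 6 libraries tested, 1 library stood apart from the rest of its group by Dixon's criterion, and chance flags about 1 set in 20. Rpl13a stood at 131 CPM in WT replicate 4, against 61.5 to 84.3 CPM in the other WT libraries. Rps4l stood at 43.9 CPM in WT replicate 4, against 26.5 to 31.8 CPM in the other WT libraries. Albumin stood at 33820 CPM in KO replicate 2, against 26700 to 27600 CPM in the other KO libraries, and at 59960 CPM in WT replicate 2, against 19180 to 32640 CPM in the other WT libraries.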

How the results depend on the processing

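The count of ribosomal protein genes called was 0 in both directions under every other scaling, filter and prior tried, by limma-voom, with the replicate block, with Rps3a copies summed and with protein-coding genes alone. It was 3 lower and 0 higher by DESeq2 (Rps3a2, Rpl41 and Rplp0), and 3 lower (Rps4x, Rpl41 and Rps12) and 1 higher (Rpl15) without WT replicates 1, 3 and 4. On leaving out 1 library it ranged from 0 to 1 in each direction, and it was above 0 only without WT replicate 4. The median log2 fold change of these genes stayed between -0.12 and 0.07.

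Over all genes, 77 higher and 105 lower calls became 43 and 61 with library totals only, 579 and 1039 by DESeq2, 231 higher by limma-voom, 1655 and 1680 when WT replicates 1, 3 and 4 were left out, and 3 and 1 when WT replicates 5 and 6 were. On leaving out 1 library they ranged from 0 to 1420 higher and from 0 to 1473 lower, the top values being without WT replicate 4. The fold change of Rps3a1 turned to -0.21 without WT replicates 1, 3 and 4 (0.20 with them). With the replicate block the counts were 0 higher and 1 lower. The labels do not say whether equal numbers pair the samples, and the values at hand cannot decide it. Deviations of same-numbered libraries correlated at 0.179, 0.069, -0.029 and -0.02, and 4 of 8 libraries correlated best with their own number. The causes of these changes were not tested. Shared sequence limits what the counts of genes with little unique sequence can show.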

Other observations

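The division of the libraries seen for Rps3a2 was looked for in the other genes with a mean of at least 1 CPM. The genes named were ranked by likeness of their pattern over the 10 libraries to that of Rps3a2 and so were chosen after their values were seen. Given are ranks 1 to 3 of the same order, ranks 1 and 3 of the mirrored order, and Rps6-ps4, which ranked 13 in the same order and was picked because it is a copy of a ribosomal protein gene. Tpm3-rs7 stood at 2.54 to 2.99 CPM in KO libraries, at 53.4 to 71.8 CPM in WT replicates 1, 3 and 4 and at 2.85 to 4.02 CPM in WT replicates 2, 5 and 6. Gm42031, a predicted gene, stood at 0 to 0.539 CPM in KO libraries, at 22.6 to 71.7 CPM in WT replicates 1, 3 and 4 and at 0.863 to 1.44 CPM in WT replicates 2, 5 and 6. Arhgef10 stood at 2.87 to 5.61 CPM in KO libraries, at 15.7 to 17.3 CPM in WT replicates 1, 3 and 4 and at 3.33 to 4.56 CPM in WT replicates 2, 5 and 6. Pttg1, which encodes securin, had the mirrored order, at 24.99 to 29.8 CPM in KO libraries, 0.529 to 1.77 CPM in WT replicates 1, 3 and 4 and 14.97 to 18.2 CPM in WT replicates 2, 5 and 6. Cdcp1, a membrane glycoprotein, likewise stood at 5.09 to 10.2 CPM in KO libraries, 0.340 to 0.661 CPM in WT replicates 1, 3 and 4 and 4.75 to 10.4 CPM in WT replicates 2, 5 and 6. Rps6-ps4, a pseudogene of Rps6 outside the symbol rule, stood at 30.4 to 35.7 CPM in KO libraries, at 64.6 to 95.6 CPM in WT replicates 1, 3 and 4 and at 20.3 to 34.6 CPM in WT replicates 2, 5 and 6. Which feature of the animals or libraries goes with this division was not tested, and every KO against WT value rests on a WT group that holds both sets.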
